A study of Drosophila melanogaster with 4 samples.

Results

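Ribbon (Rib) is a nuclear protein of Drosophila melanogaster that carries a BTB domain, through which proteins pair, and a DNA-binding domain of the Pipsqueak type. It is best known for its requirement in the elongation of the embryonic salivary gland and trachea, both tubes that lengthen without further cell division. Lolal, a small BTB protein, is a known partner of Rib.

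The data described here are the places bound by GFP-tagged Rib expressed with the sage-Gal4 driver, as 1 list of ChIP-seq peaks. All peaks of that list were taken, 907 of the 5103 peaks in the 2 lists of the series, and no value or threshold was used to choose among them. The 859 peaks on chromosomes 2, 3, 4 and X are described. The embryos were sage-GAL4::UAS-rib-GFP at stages 11 to 16, from an 8 h collection at room temperature that was aged for 11 h and passed through an embryo sorter. Chromatin of 3 independent collections was fixed in 1.8% formaldehyde and precipitated with an anti-GFP antibody, and reads of 50 bp were sequenced. The study also holds an input from the same embryos and a fkh-Gal4 arm with its own input, which were not compared here.

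Several features limit what the list can show. Rib-GFP came from a UAS transgene in addition to the embryo's own rib gene, in the cells in which the driver was active, and whole embryos were used. sage-Gal4 is a driver used for the embryonic salivary gland. Binding in few cells and weak binding in more cells cannot be told apart in such a bulk sample. The 3 collections were merged before peaks were called, so no value below has a replicate error. The list carries positions only, with no height, score or read count, and read depth is unknown. The intervals given are exact binomial (Clopper-Pearson) 95% intervals, which cover the counting of peaks or genes alone.

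The peaks were short. Widths ran from 57 to 382 bp with a median of 103 bp (quartiles 77 and 141 bp), and together the 859 peaks covered 100.2 kb. Each peak was placed by RefSeq gene positions on dm6. A peak counted as at a gene end where it came within 1 kb of a start or end coordinate of a protein-coding gene, inside or outside the gene, and this class held 382 peaks (44.5%, interval 41.1 to 47.9). A further 309 peaks lay deeper inside a gene body (36.0%, interval 32.8 to 39.3), and 168 had no protein-coding gene within 1 kb (19.6%, interval 17.0 to 22.4). Median widths were 112 bp at gene ends, 99 bp inside genes and 97 bp between genes. The centres of the gene-end peaks were a median of 52.5 bp from the nearest end of any gene. Peaks inside genes were a median of 10140 bp from the nearest end of their gene, and peaks between genes a median of 9348.5 bp from the nearest gene. The gene positions used carry no strand, so gene starts and 3′ ends were not separated.

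Peaks per Mb were highest on 2L and lowest on X. Arm 2L held 199 peaks (8.50 per Mb), 2R 180 (7.13 per Mb), 3R 192 (5.99 per Mb), 3L 162 (5.78 per Mb), chromosome 4 only 7 (5.50 per Mb) and X 119 (5.06 per Mb). On 2L, 15 of the 199 peaks lay in the histone gene array.

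**Figure D1:**
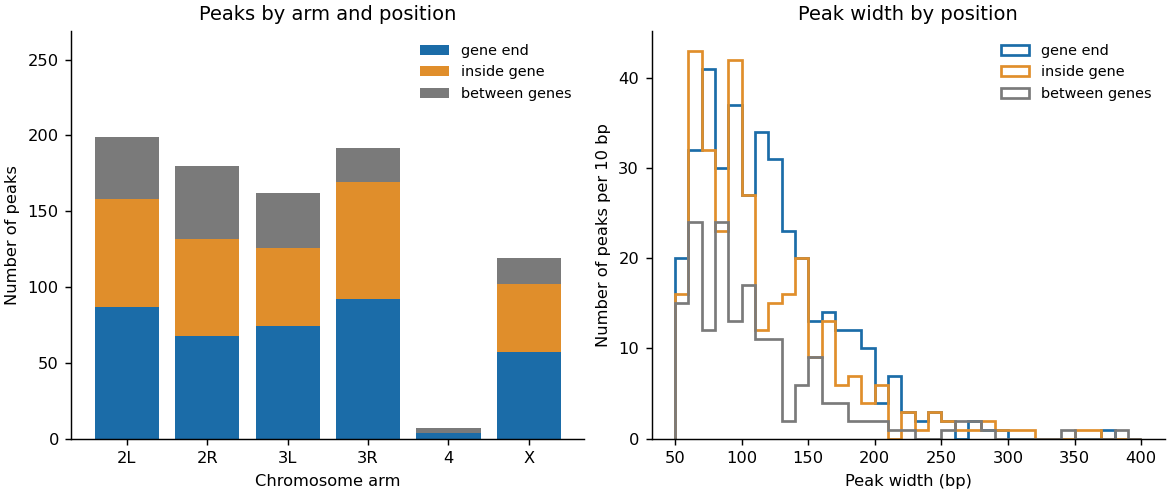
Left, number of peaks on each chromosome arm, stacked by position (gene end, inside a gene, between genes). Right, number of peaks per 10 bp of width for the 3 positions. Arm 2L held 199 peaks and chromosome 4 held 7, and in each class most peaks were shorter than 150 bp, with a tail up to 382 bp.

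At the loci of the experiment itself, Rib-GFP gave 1 peak at rib and none at the others. The rib peak was 92 bp wide (2R, 19275669 to 19275760) and lay inside the 11.319 kb gene, 5.636 kb from its lower-coordinate end. The body plus 1 kb of fkh, which encodes the FoxA factor of the salivary gland, held no peak. Nor did those of sage, the salivary gland bHLH gene whose regulatory sequence the driver is named for, of lolal, the BTB partner, or of CrebA, the bZIP activator of secretory genes. With a list of positions alone, a missing peak does not show that Rib was absent there.

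A peak was counted for every protein-coding gene whose body extended by 1 kb on each side it overlapped by at least 1 bp. By this count 691 peaks (80.4%, interval 77.6 to 83.0) met a gene. They met 782 of 13922 genes, which is 5.62% and is the background for every gene list below. A single peak met 1 gene in 471 cases, 2 genes in 187, 3 genes in 26 and 4 genes in 7, so neighbouring genes often share a peak. Most of the genes, 669, held 1 peak, and 79 held 2. The 34 genes with 3 or more made up 0.244% of all genes.

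Long genes were met most often. Of genes under 1 kb, 2.58% held a peak, against 18.2% of genes of 20 to 50 kb, 35.7% of genes of 50 to 100 kb (80 of 224) and 44.6% of longer genes (37 of 83). The median length was 2.163 kb over all genes, 7.523 kb over the genes met and 57.5 kb over the genes with 3 or more peaks. For each gene list below, the share met is therefore given beside a length-weighted share. This is the share of all genes after weighting to the list's gene lengths, as a description and not a test. It takes in the short histone and ribosomal protein genes, which were met often (below). For lists of short genes it is therefore higher than it would be without them.

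**Figure D2:**
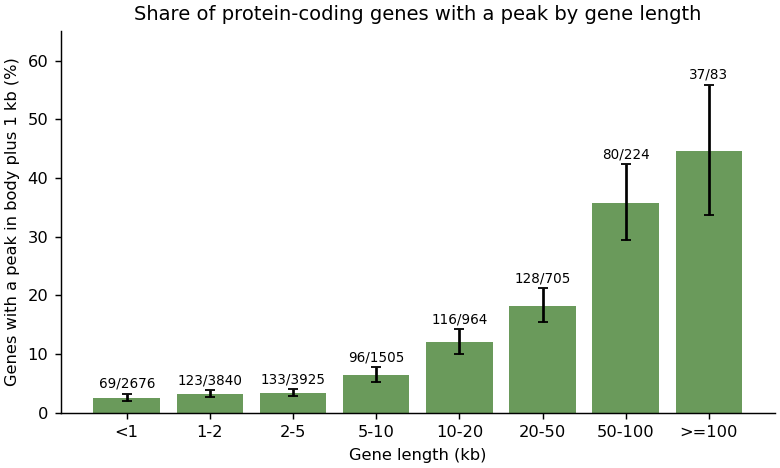
Share of protein-coding genes with a peak in the body plus 1 kb, in 8 classes of gene length in kb. Bars are shares, lines are exact 95% intervals, and the numbers are genes with a peak over all genes of the class; the share ran from 2.58% in the shortest class to 44.6% in the longest.

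Histone genes, which share the peaks of their array, were among the genes with the most peaks. Without them, Myo81F led with 6 peaks. It is a 1966 kb gene at 81F that encodes a myosin, and its first and last peaks were 488 kb apart. The density of Myo81F, 0.0305 peaks per 10 kb, was the lowest of the 20 genes with the most peaks. Next came 4 genes with 5 peaks each. They were stol, which encodes an alpha2delta subunit of voltage-gated calcium channels; GEFmeso, a guanine nucleotide exchange factor; CG34355; and Eip75B, an ecdysone-induced nuclear receptor.

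The genes with 4 peaks included 3 zinc-finger regulators. At ush, a cofactor of GATA factors, the peaks were 57, 66, 287 and 109 bp wide and the widest was among the 20 widest of the list. At shn, a nuclear effector of Dpp signalling, the 4 peaks were 99 to 130 bp wide and all lay inside the gene. At jing, needed in trachea and midline, they were 67 to 143 bp wide. The others with 4 peaks were cpo, an RNA-binding protein of the nervous system, CG17698, beat-IIIc, an immunoglobulin-family protein related to the axon defasciculation factor Beat, eIF4EHP, a cap-binding translational repressor, CG42747 and the bZIP factor gene Pdp1.

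The list of 20 was completed by 6 genes with 3 peaks each. These were beat-Ib, px, Meltrin, which encodes a metalloprotease of the ADAM family, the kinase gene Tlk, the HIF-alpha gene sima and the neural homeodomain gene pros. The Dpp receptor gene tkv and the potassium channel gene KCNQ, with 3 peaks each, fell outside it. Of the 80 peaks counted for the 20 genes, 70 were in the inside-gene class and 10 were at an end of any gene. Those 10 include peaks that lay well inside the counted gene. The 57 bp peak in ush was 3.47 kb from its lower-coordinate end and at an end through cbt. The 278 bp peak in beat-Ib was 5.119 kb from its upper-coordinate end and at an end through CG18063.

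The spread of these peaks differed between genes. Eip75B carried its 5 peaks of 86 to 115 bp at 37.4, 48.5, 68.9, 97.3 and 112.4 kb from its lower-coordinate end, over most of the 113.7 kb gene. GEFmeso had peaks of 78 to 191 bp from 22.0 to 57.6 kb, the last at the gene's end. In contrast, the 4 peaks of CG17698 all lay in the 1 kb outside its lower-coordinate end, from 0.876 to 0.198 kb before it, with widths of 148, 247, 76 and 140 bp. The 4 peaks of eIF4EHP fell between 14.0 and 15.1 kb of a 45.884 kb gene.

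**Figure D3:**
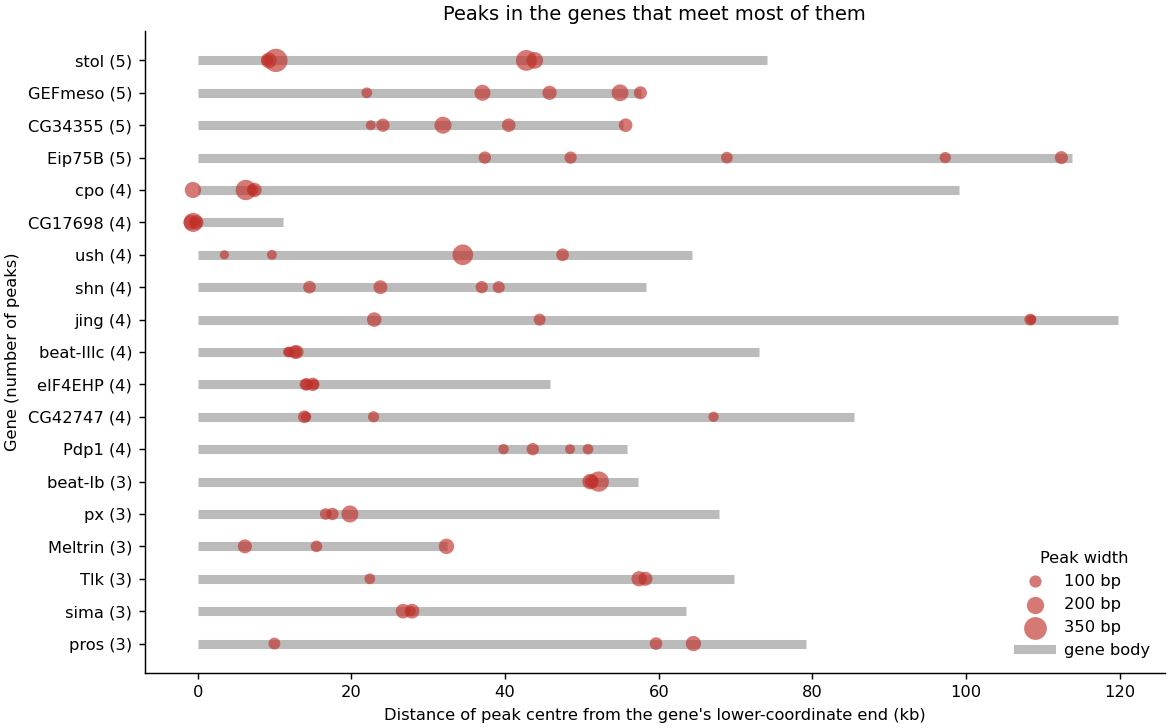
Peaks along 19 of the 20 genes with the most peaks (histone genes and the 1966 kb Myo81F left out), by distance of the peak centre in kb from the gene's lower-coordinate end; grey bars are gene bodies and point area follows peak width. Peaks were spread over Eip75B and GEFmeso, stood within 1.2 kb in beat-IIIc, eIF4EHP, beat-Ib and sima, and fell into 2 close groups in stol.

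Peaks per 10 kb of body plus 1 kb were ranked among the 34 genes with 3 or more peaks alone, since a short gene with 1 or 2 peaks can exceed them. Histone genes held the first 5 places, led by His2B:CG33872 with 15.4 peaks per 10 kb. They were followed by lawc with 5.31 and CG17698 with 3.05. HmgD, an abundant HMG-box chromosomal protein, had 1.74, and Trf2, the TBP-related factor that serves many TATA-less promoters, had 1.17. The 3 peaks of lawc and Trf2 were the same ones, 57, 67 and 72 bp wide, because the genes overlap. CG34355 completed the first 10 of these genes with 0.872, and Meltrin, GEFmeso, eIF4EHP and tara followed with 0.872 to 0.818.

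The 20 widest peaks lay mostly away from gene ends, as did the whole list, of which 44.5% was at a gene end. Among all peaks at or above the median width that share was 48.5%. Of the 20 widest, 264 to 382 bp, 5 were at a gene end, 9 inside a gene and 6 between genes, and 13 of them were on 2L. The widest of all, 382 bp (2L, 14023960 to 14024341), overlapped the 378 bp gene of the non-coding RNA lncRNA:CR31840 and was 2851 bp from the nearest protein-coding gene, hll. The second, 378 bp (2R, 19826236 to 19826613), was at a gene end of Toll-7, a receptor of the Toll family. The third was the 367 bp peak in stol (2L, 15654170 to 15654536), and the fourth the 355 bp peak in Rdl, a GABA receptor gene (3L, 9165769 to 9166123).

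Apart from the peak in ush, the other wide peaks were as follows. CadN, which encodes N-cadherin, carried peaks of 306 and 264 bp, and spri, a Ras and Rab effector gene on X, 1 of 311 bp. CG34396 and ktub shared 1 of 294 bp, beat-Ib and CG18063 1 of 278 bp, and Tsp, the thrombospondin gene, held 1 of 272 bp. A 280 bp peak lay in cpo and a second wide peak of 292 bp in stol. RpL30 shared a 288 bp peak with CG31793, and the heat shock genes Hsp70Bbb and Hsp70Bb shared 1 of 272 bp. The peaks between genes, apart from that at lncRNA:CR31840, were up to 341 bp wide and lay 5180 to 56545 bp from the nearest gene (RYBP, ACXC, btv, kek1 and CG17571).

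Peaks recurred in compact groups of similar layout, a pattern that was noticed after the positions had been seen. With the histone and 5S arrays left out, 126 peaks stood in 53 local groups, in which neighbouring centres were at most 1.5 kb apart. Among peak pairs less than 3 kb apart, 28 were separated by 0.1 to 0.3 kb and 36 by 0.9 to 1.2 kb. Only 9 were separated by 0.3 to 0.6 kb, 16 by 0.6 to 0.9 kb and 6 by 1.2 to 1.5 kb.

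In 22 groups, with 58 peaks, the first and last centres were 0.9 to 1.2 kb apart. Of these, 8 lay between genes and 12 were on 2L. Their peaks had a median width of 146.5 bp, against 102.5 bp over the 718 peaks outside local groups and 91 bp over groups of another span. They held 11 of the 20 widest peaks. At stol, centres stood at 0, 186 and 1113 bp from the first, with widths of 91, 168 and 367 bp. At beat-Ib they stood at 0, 209 and 1110 bp with widths of 165, 131 and 278 bp, and at cpo at 0, 901 and 1125 bp with widths of 280, 91 and 141 bp.

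The commonest layout of a group of 3 was a wide peak and, some way off, a pair of narrower ones. In all 12 local groups of 3 the widest peak was at an edge. In 9 of the 12 the other 2 peaks were less than 300 bp apart (185 to 224 bp) and the widest was more than 600 bp (853 to 954 bp) from the nearer one, limits that were set after the positions had been seen. The groups at sima, at lawc and Trf2 and between genes with nrv3 nearest did not have this layout. Among the 9 groups, the wide peak came at the lower-coordinate edge in 5 and at the upper edge in 4. The 9 groups were in stol, beat-Ib and cpo and between genes. The nearest genes of the latter were kek1, ACXC, CycE or stol, CG18518, CG17571 and Camta. Their widest peaks lay 2925 bp (Camta) to 56545 bp (CG17571) from the nearest gene, with 39196 bp at kek1. Groups of 4 at beat-IIIc (0, 134, 874 and 1122 bp) and eIF4EHP (0, 159, 921 and 1078 bp) had a pair at each edge, and CadN had 2 peaks 1033 bp apart. Merging peaks within 1.5 kb, a step added after the data had been seen, left 14 genes with 3 or more in place of 34, and 11 of the 20 leading genes kept 3 or more. Whether these places share a sequence, or reads that map to several places, was not tested.

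**Figure D4:**
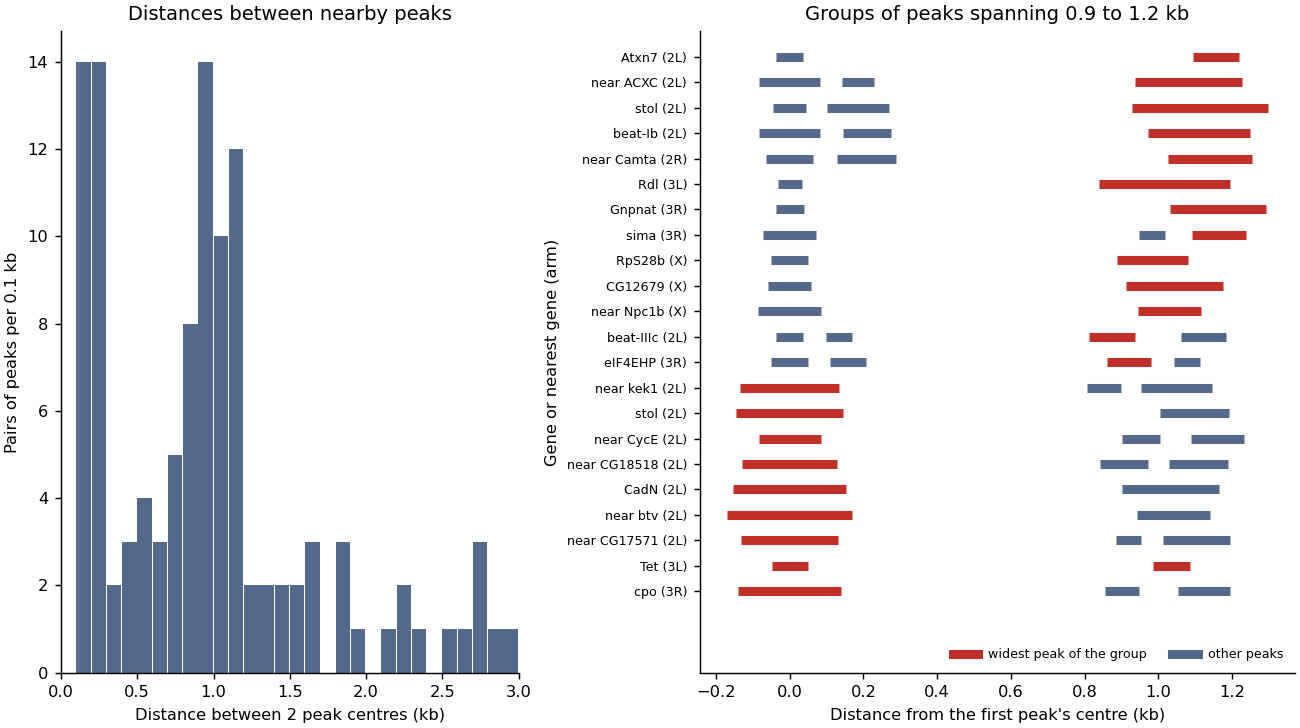
Left, number of peak pairs per 0.1 kb of distance between centres, up to 3 kb, with the histone and 5S arrays left out. Right, the 22 groups whose first and last centres were 0.9 to 1.2 kb apart, each peak drawn to its width in kb from the first centre, with the widest peak in red (both peaks at Tet, which tie); names are the nearest genes, and near marks groups between genes.

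Gene lists were read against 5.62% of all genes. Of 41 lists with 1468 genes, 32 had a larger share with a peak than all genes, 30 had a larger share than the length-weighted one, and 2 had no peak. The lists and their members were chosen with earlier results of these data known, so these tallies depend on that choice. The lists together held 212 of the 782 genes met.

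**Figure D5:**
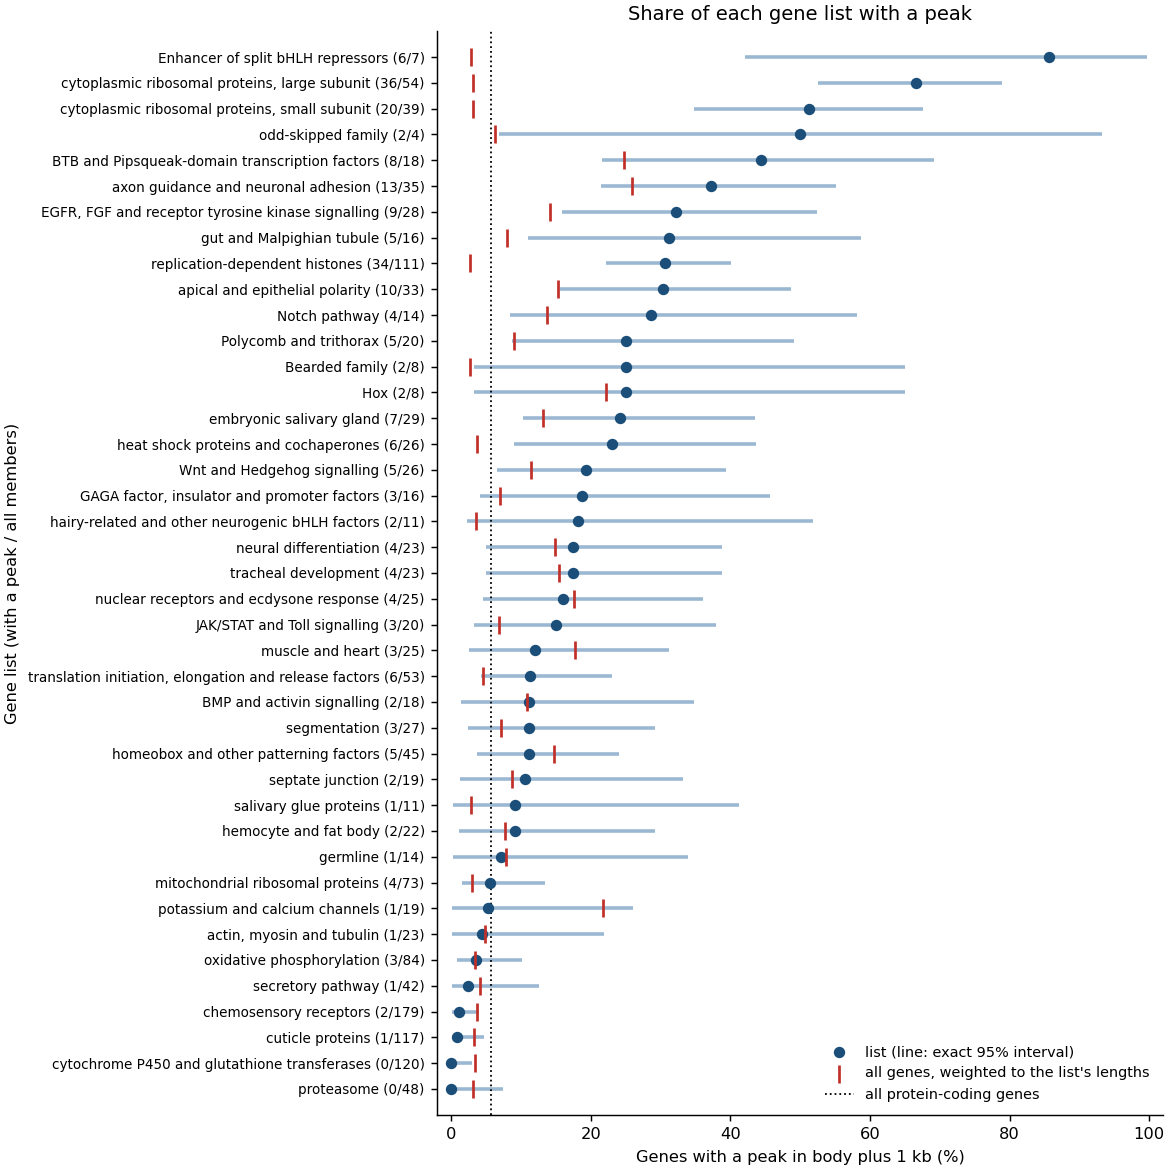
Share of each of 41 gene lists with a peak in the body plus 1 kb (points, with exact 95% intervals as lines); red ticks are the share of all genes weighted to the list's gene lengths and the dotted line is the 5.62% of all genes. Enhancer of split bHLH repressors and cytoplasmic ribosomal proteins had the highest shares, and the proteasome and the cytochrome P450 and glutathione transferase lists had none.

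Among genes of protein synthesis, those of the cytoplasmic ribosome held more peaks than those of the mitochondrial ribosome. Peaks met 36 of 54 large-subunit genes (66.7%, length-weighted 3.07%) and 20 of 39 small-subunit genes (51.3%, length-weighted 3.06%), against 4 of 73 mitochondrial ones (5.48%, length-weighted 3.01%). The peaks at the cytoplasmic genes were at gene ends. That class takes in nearly any peak at genes so short, with median lengths of 1.315 kb (large subunit) and 1.356 kb (small subunit). The peak centre was a median of 22.5 bp from the gene's nearer end over the large-subunit genes and 21.5 bp over the small-subunit genes, and 33 of 36 and 18 of 20 were within 100 bp. Over the 692 other genes met, histones left out and the nearest peak of each taken, the median was 477 bp and 206 were within 100 bp. All genes met had a median length of 7.523 kb, and a longer gene allows a larger distance. The 57 peaks at these genes were 66 to 288 bp wide with a median of 146 bp, the widest at RpL30 (288 bp), RpL41 (252 bp), RpS10b (225 bp), RpL7 (216 bp) and RpS4 (213 bp). The mitochondrial members mRpL27 and mRpL55 shared their peaks with RpL27A and with cdi and ATPsynD.

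Ribosomal proteins encoded by 2 gene copies had a peak at 1 copy at most in the 10 families looked at, which were picked after the values had been seen. In 9 of them a single copy was met. Those met were RpL10Ab, RpL22, RpL37-1, RpS5a, RpS10b, RpS14a, RpS15Aa, RpS19a and RpS28b, while RpL10Aa, RpL22-like, RpL37-2, RpS5b, RpS10a, RpS14b, RpS15Ab, RpS19b and RpS28a held none. RpS5b, RpS19b and RpL22-like are known mainly from the gonads. Neither RpL34a nor RpL34b held a peak.

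Translation factors were met less often, at 6 of 53 (11.3%, length-weighted 4.59%). Apart from eIF4EHP they were the elongation factor genes eEF1gamma (253 bp), eEF1alpha1 (162 bp) and eEF5 (78 bp) and the initiation factor genes eIF1 and eIF2beta. The eIF1 peak of 129 bp was shared with RpL28. Oxidative phosphorylation genes had 3 of 84 (3.57%, length-weighted 3.32%). None of 48 proteasome genes was met (length-weighted 3.12%), which allows a share of up to 7.40%.

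Histone genes and the Hsp70 genes exist as near-identical copies, and how reads that map to several copies were treated is not given in the sources used here. The histone array (2L, 21416953 to 21541681) held 15 peaks of 57 to 186 bp that met 34 of 111 replication-dependent histone genes (30.6%, length-weighted 2.71%). Which copy a peak belongs to is therefore uncertain. Peaks met 6 of 26 heat shock and cochaperone genes (23.1%, length-weighted 3.64%). Besides Hsp70Ba, Hsp70Bb, Hsp70Bbb and Hsp70Bc they were Hsp83, which encodes the Hsp90 chaperone (223 bp), and DnaJ-1 (87 bp, 21 bp from the gene's end).

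The Enhancer of split genes, bHLH repressors that are direct targets of Notch signalling, had the highest share, 6 of 7 (85.7%, interval 42.1 to 99.6, length-weighted 2.76%). Each held 1 peak, which at genes of this length (median 0.978 kb) is a gene-end peak by definition. Widths were 166 bp at E(spl)mbeta-HLH, 140 bp at E(spl)mdelta-HLH, 122 bp at E(spl)m8-HLH, 101 bp at E(spl)m3-HLH, 97 bp at E(spl)m5-HLH and 57 bp at E(spl)mgamma-HLH. These centres were 4 to 128 bp from the gene's nearer end, except for 746 bp at E(spl)mdelta-HLH. Among the Bearded-family genes, small inhibitors of Notch signalling, E(spl)malpha-BFM and Tom were met (2 of 8, 25%, length-weighted 2.73%). The related bHLH repressors hry and dpn were met at 50 and 24 bp from an end (2 of 11 in their list, 18.2%, length-weighted 3.46%), hry with a 249 bp peak.

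Of the Notch pathway itself 4 of 14 genes were met (28.6%, length-weighted 13.7%). The 2 further names asked for this list, Dl and Hairless, did not match, while H did. Whether Dl holds a peak was therefore not looked at. Those met were mam, the coactivator, kuz, the protease that cleaves Notch, fng, the glycosyltransferase, and numb, the inhibitor. Among these peaks, that at kuz was at a gene end, 34 bp from it.

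Genes of the salivary gland, where the driver is used, had 7 of 29 members met (24.1%, interval 10.3 to 43.5, length-weighted 13.1%). The interval includes the length-weighted share. The members were the splicing regulator gene ps (2 peaks, the wider 189 bp, inside the gene), hry, crb, hth, rib, fog and rho. The gene-end peaks of crb (155 bp), which sets the size of the apical membrane, fog (77 bp), a secreted trigger of apical constriction, and rho (65 bp), a protease of EGF ligand processing, were 35, 12 and 25 bp from the nearer end. The secretory pathway list, the machinery for high secretion in that gland, had 1 of 42 met (2.38%, length-weighted 4.09%), Spase22-23, whose 109 bp peak was shared with mask. Of 11 glue protein genes, which act in the larval gland, Sgs8 was met (9.09%, length-weighted 2.77%) by a 197 bp peak that it shared with CG33500 and whose centre was 1014 bp from its end.

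Apical and epithelial polarity genes had 10 of 33 met (30.3%, interval 15.6 to 48.7, length-weighted 15.2%). The interval thus starts just above the length-weighted share. With each peak given to its closest gene, 7 of the 33 were met. The widest peaks were at kst, the apical spectrin gene (207 bp, 27 bp from an end), cno, the junction-to-actin linker (203 bp), if, an integrin alpha subunit (159 bp), and crb. Rok, the kinase that activates myosin, shared a 128 bp peak with RpS19a, which was closer to it. Peaks of 57 to 104 bp met scrib, baz, fog, sdt and ed. Septate junction genes had 2 of 19 (10.5%, length-weighted 8.67%), Gli with a 210 bp peak 4 bp from its end and Lac with 1 of 81 bp inside the gene.

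Tracheal genes had 4 of 23 met (17.4%, length-weighted 15.4%), namely osp with 2 peaks, salm, rib and the FGF ligand gene bnl. Gut and Malpighian tubule genes had 5 of 16 (31.2%, length-weighted 7.92%), with 2 peaks each at Stat92E and bowl and 1 each at drm, otp and cad. Among the odd-skipped family, bowl and drm were met and the other 2 members were not (50%, length-weighted 6.30%). With the peaks at or above the median width alone, the share of all genes was 3.21%. The tracheal share was then 4.35%, the gut share 6.25% and the odd-skipped share 0%.

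For signalling, EGFR, FGF and receptor tyrosine kinase genes had 9 of 28 met (32.1%, interval 15.9 to 52.4, length-weighted 14.1%), each with 1 peak of 58 to 126 bp. By role these were the ligand genes spi, vn, bnl and ths, the ligand-processing genes rho and S, the EGFR inhibitor kek1, the phosphatase gene csw and the ETS repressor gene aop. The peaks at kek1, aop, bnl and rho lay 25 to 80 bp from a gene end. With those wider peaks alone, the share of this list was 7.14% and that of all genes 3.21%.

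Wnt and Hedgehog signalling had 5 of 26 (19.2%, length-weighted 11.4%), with 2 peaks at ptc, the Hedgehog receptor and target gene, the wider 221 bp and 32 bp from an end. The BMP list had 2 of 18 (11.1%, length-weighted 10.8%), the receptor gene tkv with 3 peaks and shn with 4. JAK/STAT and Toll signalling had 3 of 20 (15%, length-weighted 6.90%), Stat92E, Toll-7 and Socs36E. The 1 further name asked, Toll, did not match, so whether that gene holds a peak was not looked at. Segmentation genes had 3 of 27 (11.1%, length-weighted 7.16%), which were ptc, hry and nkd.

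Among regulators of transcription, genes of Rib's own BTB and Pipsqueak class had 8 of 18 met (44.4%, interval 21.5 to 69.2), while the length-weighted share was 24.8%, inside that interval. They were ttk (2 peaks), Trl, which encodes the GAGA factor, rib, lola, bab1, bab2, mod(mdg4) and rdx, the last a BTB adaptor of a ubiquitin ligase and no transcription factor. The widest of these peaks was 130 bp, at Trl. With the wider peaks alone the share was 5.56%, and that of all genes 3.21%. GAGA factor, insulator and promoter factors had 3 of 16 (18.8%, length-weighted 7.04%), Trl, Dref and mod(mdg4). Dref shared its 114 bp peak with RpL13, whose end was closer to the peak centre (7 bp, against 77 bp for Dref). With each peak given to its closest gene, 2 of the 16 were met. Polycomb and trithorax genes had 5 of 20 (25%, length-weighted 8.94%). They were ash1, Trl, Pc, kis and Psc, with peaks of 60 to 133 bp.

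Nuclear receptor and ecdysone response genes had 4 of 25 (16.0%, length-weighted 17.5%), with 5 peaks at Eip75B, 2 at EcR and 1 each at Hr4 and Hr3. Hox genes had 2 of 8 (25%, length-weighted 22.1%), lab and Abd-B, and other homeobox and patterning factors 5 of 45 (11.1%, length-weighted 14.7%).

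Genes of other cell types of the embryo were met too, at shares whose intervals all include the length-weighted share. Axon guidance and neuronal adhesion had 13 of 35 (37.1%, interval 21.5 to 55.1, length-weighted 25.9%). Ten-a, Fas2 and caps had 2 peaks each, and the guidance genes sli, robo2, NetA, fra, unc-5 and Sema1a had 1 each. Neural differentiation had 4 of 23 (17.4%, length-weighted 14.9%), muscle and heart 3 of 25 (12%, length-weighted 17.7%), hemocyte and fat body 2 of 22 (9.09%, length-weighted 7.71%) and germline 1 of 14 (7.14%, length-weighted 7.79%). Actin, myosin and tubulin genes had 1 of 23 (4.35%, length-weighted 4.88%), betaTub60D. Whether binding in cells outside the gland contributes to the list was not tested.

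Gene families expressed mainly later or in other organs had few peaks. Chemosensory receptors had 2 of 179 (1.12%, length-weighted 3.62%), of which Ir31a shared its peak with RpS27A and Ir68b with yps. Cuticle proteins had 1 of 117 (0.855%, length-weighted 3.24%). None of 120 cytochrome P450 and glutathione transferase genes was met (length-weighted 3.34%), which allows a share of up to 3.03%. The length-weighted shares of these lists take in the short histone and ribosomal protein genes and would be lower without them. How much lower was not computed. The potassium and calcium channel list of long genes had 1 of 19 (5.26%, length-weighted 21.8%), KCNQ. That list did not include stol, the calcium channel subunit gene with 5 peaks.

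Among small RNA genes, some snRNA genes of the spliceosome held peaks and no tRNA, rRNA or snoRNA gene did. Non-coding genes, here and below, were counted by overlap of the gene body without a flank. By that count 3.70% of protein-coding genes held a peak. Peaks overlapped 5 of 32 snRNA genes (15.6%, interval 5.28 to 32.8). These were the U1 genes snRNA:U1:21D (189 bp peak), snRNA:U1:95Ca (125 bp), snRNA:U1:95Cb (119 bp) and snRNA:U1:95Cc (66 bp) and the U2 gene snRNA:U2:34ABb (137 bp). The U1 RNA pairs with the 5′ splice site and the U2 RNA with the branch point. The 3 genes at 95C account for 3 of the 5 peaks of CG34355, and the peak at snRNA:U1:21D was the one counted for Lsp1beta. None of 290 tRNA genes (upper limit 1.26%), 269 snoRNA genes (1.36%) or 98 rRNA genes (3.69%) was overlapped, and the 96 genes of the 5S array held no peak. Uhg4, a host gene of snoRNAs, was overlapped by a 235 bp peak. U1 genes are near-identical copies, to which the same limit on read mapping applies as to histone genes.

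Long non-coding RNA genes were overlapped in 34 of 1959 cases (1.74%), by 37 peaks of which 16 lay between protein-coding genes. After lncRNA:CR31840, the widest of these were at lncRNA:CR45365 (184 bp), lncRNA:CR44833 (162 bp), lncRNA:CR44380 (156 bp), lncRNA:CR45297 (138 bp), lncRNA:CR45354 (126 bp), lncRNA:CR44445 (107 bp), lncRNA:CR43650 (103 bp) and lncRNA:iab8 (103 bp), the transcript of the bithorax complex. A peak of 87 bp overlapped lncRNA:alphagamma-element:CR32865, near the Hsp70 genes. Of 260 miRNA genes 2 were overlapped, mir-4962 within Tlk and mir-954 near mav.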

How the data were processed

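The authors deposited, per the file itself, a list of peaks with 3 columns (chromosome, start, end) and no other measure. Per the submitters' processing notes the tools were BWA and MACS2 2.1.0.20140616 and the build was dm6. Not given in the sources used here are the peak threshold, whether the input was the control, and what was done with multi-mapping reads. A peak too weak for that threshold, or in repeated sequence, may be missing.

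Starts were made 1-based. Positions of 13922 protein-coding genes came from a RefSeq table of the same assembly, which gives no strand and no sequence, so the planned counts at gene starts, motif searches and promoter sequences were not run. Overlaps were computed with Python 3.11.15, pandas 2.3.3 and NumPy 2.4.6, intervals with SciPy 1.17.1, and the overlap code was tested on simulated peaks. There is 1 merged list, so no test was made. Of 620 gene names asked, 594 matched by symbol, 9 by an older symbol and 17, over 11 lists, not at all and were not analysed here; pattern-defined families were added.

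Genes named were the loci of the experiment, the 20 genes with the most peaks, the 10 with the most peaks per 10 kb among those with 3 or more, those at the 20 widest peaks, up to 8 members of each list with the most and widest peaks, and the 10 non-coding RNA genes with the widest peaks between genes. Other names were chosen after their values were seen: list members beyond the first 8, tkv, KCNQ, genes following the densest, local groups, ribosomal protein copies, snRNA, miRNA, Uhg4 and CR32865. The members and lists were chosen with earlier results of these data known. After values were seen, 3 names (ph-p, jim, side; none met a peak) were removed from lists they do not belong to, and the length weighting, local groups and copies were added.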

Additional observations from a re-analysis of the deposited data

Results flagged for a closer look

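Outside chromosomes 2, 3, 4 and X, which were the only ones described, the list held 48 peaks. Of these 9 were on Y, 1 was on the mitochondrial genome and 38 were on unplaced or unlocalised scaffolds. They were noted because they are data outside the counts above. No control list was read, and whether reads that map to several places contribute to them was not tested.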

How the results depend on the processing

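The share of peaks that met a gene, 80.4%, was 71.0% without a flank. The number of genes met, 782, was 515 without a flank and 447 with the peaks at or above the median width alone (the wider peaks). The number of genes with 3 or more peaks, 34, was 8 with the wider peaks, 22 with peaks within 500 bp merged and 14 with peaks within 1.5 kb merged. For gene-end peaks the share, 44.5%, was 38.9% with windows of 500 bp, 50.3% with 2 kb and 48.5% with the wider peaks. Of the 20 genes with the most peaks, 6 kept 3 or more with the wider peaks, 15 with peaks within 500 bp merged and 19 without a flank. Of 369 list shares under alternatives, 342 stayed within the interval of the reported share and 27 did not. Without a flank the histone share was 11.7%, and that of all genes 3.70%. The mitochondrial ribosome, secretory, glue, germline, chemosensory and cuticle lists then had no gene met. Leaving out the arrays, merging within 1.5 kb and assigning each peak to its closest gene were added after the data were seen. Counts at gene starts were not run. No paired analysis was possible because 1 merged list has no replicates. Read depth is unknown, so nothing can be said of peaks below the authors' threshold.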

Other observations

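Peaks were spaced widely, with a median gap of 82.3 kb over 853 gaps between neighbours, yet 63 gaps were within 1 kb and 116 within 5 kb. Besides the histone array, 4 windows of 100 kb held 6 or 7 peaks, picked after their counts had been seen. On 2L (12800001 to 12900000) the window with kek1 held 7 peaks, whose median width was 166 bp. Only 1 of them, of 126 bp, met kek1. The others were the groups of 3 between genes, with kek1 and ACXC as the nearest genes, described above. On 2R (9400001 to 9500000) the window with Camta, Pdk and ced-6 held 7, with a median of 100 bp. Among them was the group of 3 between genes near Camta. The window with the HMG-box genes HmgD and HmgZ (2R, 21700001 to 21800000) held 6, of which 3 met HmgD, with a median of 93.5 bp. A window that covers part of the Enhancer of split complex, with Cmpk and Sld5 (3R, 26000001 to 26100000), held 6, with a median of 111.5 bp. The peaks at E(spl)mdelta-HLH and E(spl)mgamma-HLH lay outside this window. Most met genes, 570 of 782, belonged to none of the 41 lists.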
